A study of Mus musculus with 4 samples.

Results

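Fat labelled brown was compared with fat labelled beige in high-fat-diet mice of the sham group, with 1 single-nucleus library on each side. Members were the barcodes of these 2 libraries with at least 300 detected genes and under 10% of their molecules from mitochondrially encoded genes. They numbered 20799 of the 36760 barcodes in the series, 10416 labelled brown adipose tissue (BAT) and 10383 labelled beige adipose tissue (BeAT). Both libraries carry the same diet and the same sham label, so the tissue label is what separates them. The labels do not give the number, sex, age or strain of the mice behind a library, or the fat pad that was cut out. They name nuclear RNA as the molecule, whereas their protocol describes an enzyme digest checked for living cells. With 1 library a side, the tissue, the animal and the preparation cannot be told apart, and only sizes are given. Every interval (95%) covers counting error only.

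Brown adipocytes are packed with mitochondria and burn fuel as heat through the uncoupling protein UCP1, and beige adipocytes are white-depot fat cells that can take on this programme under cold or adrenergic drive. Around the fat cells lie progenitors, which make matrix and replenish adipocytes, and capillaries, which pass fatty acids inward. Macrophages of the tissue range from perivascular resident cells to lipid-laden cells that gather in obese fat.

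The libraries held 47525684 (BAT sham) and 35675477 (BeAT sham) unique molecular identifiers (UMIs, each counting 1 captured RNA molecule), with medians of 4032.5 and 3093 UMIs per member. The median share of mitochondrially encoded UMIs was 0.149% and 0.450%. The libraries shared 73 barcode sequences, 0.699% of those labelled BAT sham. After removal of scored doublets, 9791 and 9760 nuclei remained. They formed 26 clusters, of which 3 stayed unnamed. Classes are called "-like" because they were rebuilt from marker RNA.

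Ucp1 and Zic1, which define brown fat, did not bear out the tissue label of BAT sham. Over all kept barcodes, Ucp1 held 3 UMIs in the library labelled BAT sham and 6 in the library labelled BeAT sham. Zic1, a transcription factor gene of classical brown fat, held 3 and 2 UMIs. Cox7a1, which encodes a respiratory chain subunit typical of brown fat, held 104 and 102. Most of the Cox7a1 UMIs of BAT sham lay outside adipocyte-like nuclei, for which the counts are given below. The totals in this paragraph are not scaled to library depth. Lhx8, a homeobox gene also used as a brown fat marker, ran the way of the label, with 712 and 251 UMIs. Position genes were present on both sides: Hoxc10, a posterior Hox gene, held 799 and 827 UMIs and Tbx15, a T-box gene, held 5312 and 2796. Names of the libraries below are therefore those of the labels only.

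The class shares differed in fat cells, stroma, macrophages and muscle, and most in points in the unnamed nuclei. Adipocyte-like nuclei made up 41.6% (40.6% to 42.6%) of BAT sham and 49.0% (48.0% to 49.95%) of BeAT sham, which is 1.18-fold (1.13 to 1.23) more in BeAT sham. Progenitor-like nuclei made up 17.7% and 10.4%, 1.7-fold (1.57 to 1.84) more in BAT sham. Macrophage-like nuclei made up 11.6% and 6.61%, a ratio of 1.76 (1.59 to 1.94). Both stromal and macrophage shares were thus higher under the brown label. Endothelial-like nuclei were closer, at 7.37% and 6.39%, and their ratio of 1.15 moved to 1.83 at a Leiden resolution of 0.5. Unnamed cluster 1, with 589 nuclei in BAT sham and 1485 in BeAT sham, carried endothelial markers too. At resolution 0.5 an unnamed cluster of 895 and 1965 nuclei held 10 of 10 endothelial markers. The direction of the endothelial ratio therefore depends on whether such nuclei are counted. Smooth-muscle-like nuclei, pericytes included, made up 3.31% and 4.05%, T-or-NK-like nuclei 2.25% and 2.26%, and dendritic-like nuclei 2.62% and 2.02%. The dendritic-like ratio of shares, 1.295, turned to 0.936 at resolution 2.0. The unnamed clusters held 6.49% and 17.0%, so that shares of named classes lean on what was named. Over named classes without skeletal muscle, the adipocyte-like shares were 46.5% and 59.0%, the progenitor-like shares 19.8% and 12.6%, and the macrophage-like shares 12.95% and 7.96%.

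**Figure D1:**
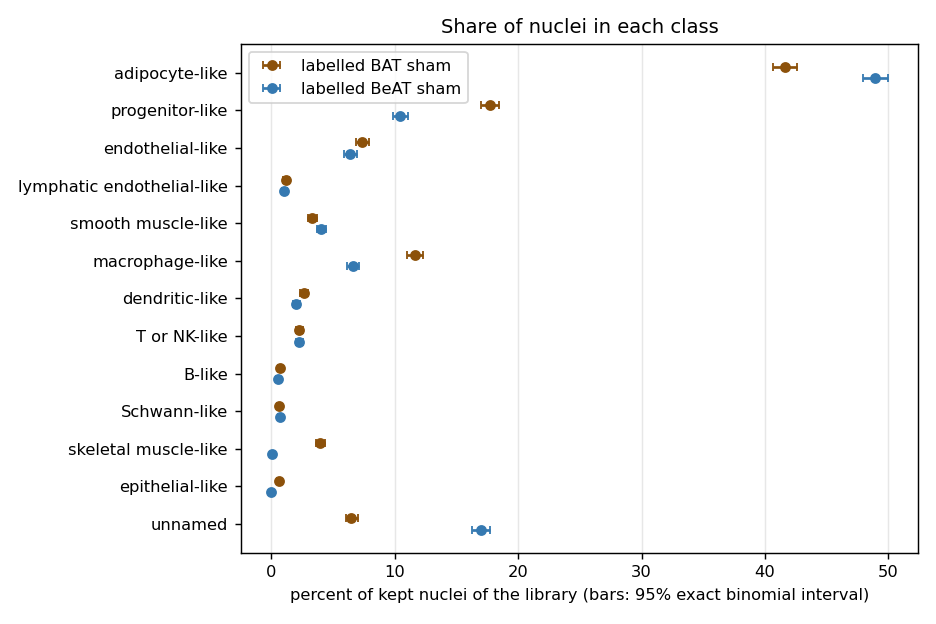
Share of kept nuclei in each class (x axis, percent) for each of the 2 sham libraries (BAT sham, BeAT sham), with exact binomial intervals (95%) that cover counting error only. Progenitor-like and macrophage-like shares were higher in BAT sham (17.7% and 11.6% against 10.4% and 6.61%), adipocyte-like and unnamed shares in BeAT sham.

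Skeletal-muscle-like nuclei were nearly all on the brown side. They numbered 387 (3.95%) in BAT sham and 2 (0.0205%) in BeAT sham, a ratio of 193 (53.0 to 1598). The 387 nuclei held 5785 UMIs of Myh4, the fastest glycolytic myosin heavy chain, 2095 of Pvalb, the calcium buffer of fast fibres, and 562 of Actn3, a fast-fibre actinin. Myh7, the slow-fibre myosin, held 3 UMIs there and the slow troponin gene Tnni1 held 5. Not every slow-type gene was that low. Mybpc1, the slow-type myosin-binding protein gene and 1 of the markers that named the class, held 1081 UMIs. Atp2a2, the slow-type calcium pump gene, held 93. Muscle RNA also appeared outside the muscle nuclei. The 8 skeletal muscle marker genes summed to 112 to 331 CPM (counts scaled to the class total) across the 10 compared classes of BAT sham and to 13.5 to 73.7 CPM in BeAT sham, higher in BAT sham in 10 of 10 classes. In BeAT sham 5 of the 8 markers were at 0 in endothelial-like and in macrophage-like nuclei. Red cell RNA went the other way. The 5 erythroid marker genes, none of them at 0 in the 4 largest classes, summed to 114 to 2333 CPM in BAT sham and 257 to 10640 CPM in BeAT sham, lower in BAT sham in 9 of 10 classes.

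Genes were compared within a class by the ratio of CPM, that is UMIs summed over the class and divided by the class total. A gene was called at least 2-fold apart where the 2 libraries summed to 50 UMIs or more, the ratio reached 2-fold and its counting interval excluded 1. Members of gene lists were called at 1.5-fold under the same interval rule, among members with at least 20 UMIs. Both are rules of size, not tests. Shares of all genes that met a limit are given for whole classes only. Counts within 1 cluster, or with 1 cluster left out, rest on fewer UMIs.

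In adipocyte-like nuclei some genes of the heat-producing programme were lower under the brown label, most met neither limit and 1, Lhx8, was higher. Of the 21 thermogenic identity genes with enough UMIs, 6 were lower in BAT sham and 1 was higher, with a median log2 ratio of -0.27 against 0.05 over all genes of the class. At the same limits 4.97% of all genes were lower and 6.26% were higher. Cidea, a lipid droplet protein abundant in brown fat, held 750 UMIs (29.7 CPM) in BAT sham and 1220 (60.0 CPM) in BeAT sham, 2.02-fold lower (1.84 to 2.22). Cox8b, a respiratory chain subunit of brown fat and muscle, held 111 and 255 UMIs, 2.85-fold lower (2.28 to 3.60). Cox7a1 held 17 and 41 UMIs, 2.997-fold lower (1.67 to 5.63). These 3 classical markers were thus all lower on the side labelled brown. Esrrg, an oestrogen-related receptor that drives oxidative genes, was 1.64-fold lower, Otop1, a proton channel, 1.84-fold lower and the fatty acid transporter and acyl-CoA synthetase gene Slc27a2 1.97-fold lower. Prdm16, the co-regulator that sets brown and beige identity, differed little, at 248 and 262 CPM, and so did the mitochondrial biogenesis co-activator Ppargc1a, at 122 and 126 CPM. Ucp1 held 2 and 3 UMIs in these nuclei.

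Fewer thermogenic members were called lower within single adipocyte clusters than in the whole class. Each cluster holds only part of the UMIs, so fewer members can meet the limits there. The part of this in the drop was not tested. Within the 5 adipocyte-like clusters taken 1 at a time, 0 to 2 list members were lower and 1 or 2 were higher. Cidea was 1.84-fold lower (1.51 to 2.27) in cluster 5, which held 13.6% of the class in BAT sham and 36.5% in BeAT sham. In cluster 15, with 27.7% and 15.03% of the class, it held 125 and 43 UMIs and was 1.45-fold higher, and 0 members of the list were lower there. Cidea was seen in 2.90% of BAT sham and 5.81% of BeAT sham adipocyte-like nuclei thinned to 1000 UMIs each (11.8% and 15.6% unthinned). Macrophage-like nuclei, which should lack it, gave 0.573% and 2.12% thinned, and the median depths were 5872 and 4146 UMIs for adipocyte-like and 3169 and 2501 for macrophage-like nuclei. The adipocyte-like share was above that background in both libraries.

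Some genes that mark where a fat depot lies in the body were higher in BAT sham adipocytes. Of 17 depot position genes with enough UMIs, 6 were higher and 1 was lower, with a median log2 ratio of 0.42. Lhx8, a LIM homeobox gene that is also the higher member of the thermogenic list, held 490 UMIs (19.4 CPM) in BAT sham and 147 (7.23 CPM) in BeAT sham, 2.68-fold higher (2.23 to 3.25). It was higher in each of the 5 adipocyte-like clusters, from 2.01-fold in cluster 15 to 10.5-fold in cluster 25. The Iroquois homeobox genes sit in 2 genomic clusters, and members of both were higher. On chromosome 8, Irx3 (chr8:91798525-91802067) was 1.91-fold higher with 57 and 24 UMIs, and Irx5 (chr8:92357625-92376286) was 2.62-fold higher with 65 and 20 UMIs. On chromosome 13, Irx1 (chr13:71957921-71963723) was 1.83-fold higher and Irx2 (chr13:72628820-72634198) 1.91-fold higher. Pitx1, a hindlimb and posterior position factor, held 16 and 4 UMIs. Tbx18 was the 1 lower member, with 11 and 20 UMIs. The counts behind these genes are small: without cluster 15, 3 members were higher, and with every nucleus thinned to 1000 UMIs 1 was. Irx3 was then seen in 0.202% and 0.131% of adipocyte-like nuclei against 0.0955% and 0% of macrophage-like nuclei, whose intervals reached 0.531% and 0.651%, so it was not clear of background (unthinned 1.38% and 0.502% against 0.264% and 0%). Of 26 Hox genes, which record position along the body axis, 1 was higher (Hoxd3) and 3 were lower (Hoxa4, Hoxb7, Hoxb4), and Hoxa9 differed by 1.21-fold.

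Most of the metabolic machinery of the adipocyte was level. None of 14 insulin and glucose genes and none of 19 core clock genes was called at 1.5-fold in either direction. Of 16 fatty acid synthesis genes, the desaturase gene Fads2 was 1.66-fold higher and Thrsp, a lipogenic regulator, was 1.59-fold lower. Of 13 lipolysis genes 3 were lower, among them Hcar2, the receptor for ketone bodies and niacin, by 2.39-fold and Pnpla2, the first lipase of triglyceride breakdown, by 1.73-fold (3837 and 5325 UMIs). Adrb3, the main adrenergic receptor of mouse fat cells, differed by 1.02-fold with 34320 and 28319 UMIs. Of 14 fatty acid oxidation genes, Cpt1b, which brings long-chain fatty acids into mitochondria, and Acadvl, a dehydrogenase of beta-oxidation, were lower. Of 9 adipokine genes with enough UMIs 2 were lower, Cfd (adipsin) by 1.92-fold and Angptl4, an inhibitor of lipoprotein lipase, by 1.56-fold. Adiponectin (Adipoq) was 1.41-fold lower and leptin (Lep) 1.15-fold lower, both inside the 1.5-fold limit. Of 14 imprinted genes, Plagl1 (1.68-fold) and Peg3 (1.63-fold) were higher and Meg3 was 2.10-fold lower.

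In BAT sham adipocytes 4 of 10 futile cycle genes were higher, and 3 of these 4 are also muscle genes. Ryr1, the calcium release channel, held 31 UMIs and 1 UMI, Atp2a1, the fast-muscle calcium pump, 100 and 10, and Ckmt2, the mitochondrial creatine kinase of muscle, 43 and 10. The share of these 3 that came from the skeletal muscle RNA described above was not tested. Pm20d1, an enzyme that makes uncoupling N-acyl amino acids and is not one of the 8 muscle markers, held 121 and 53 UMIs, 1.84-fold higher (1.32 to 2.59).

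**Figure D2:**
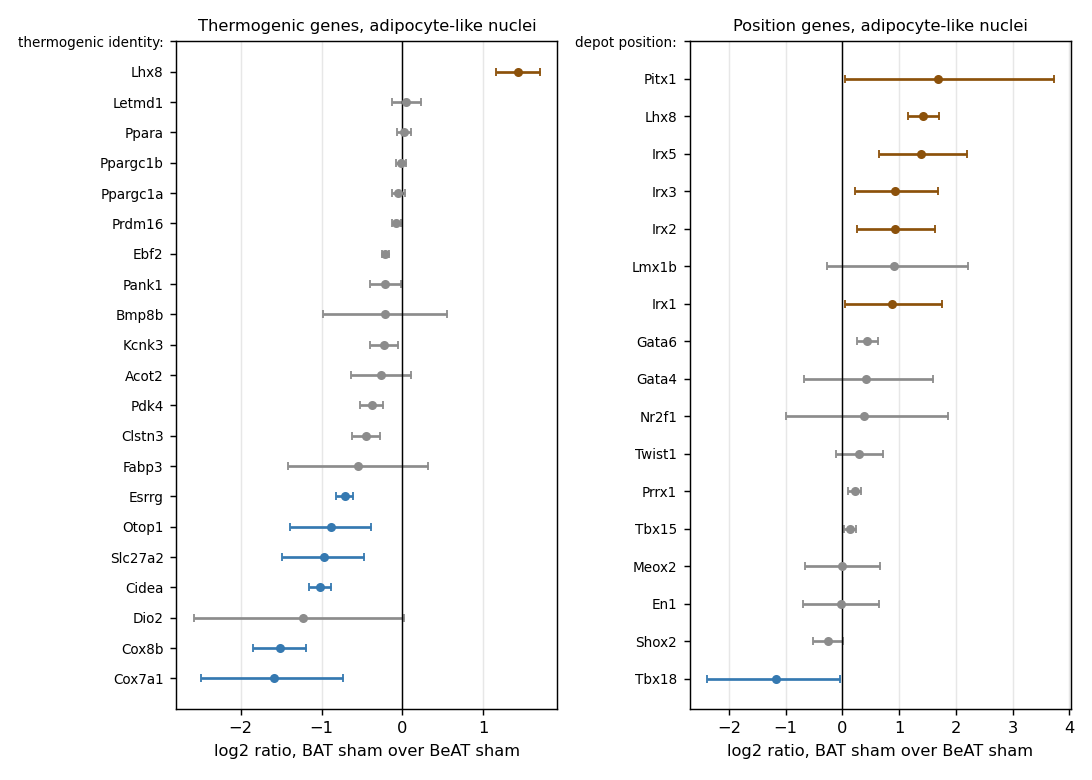
Ratio of CPM in adipocyte-like nuclei, BAT sham over BeAT sham (x axis, log2), for members of the thermogenic (left) and position (right) lists with at least 20 UMIs, with counting intervals (95%). Brown points mark genes higher in BAT sham by 1.5-fold or more, blue points genes lower by as much, and grey points neither. Cidea, Cox8b and Cox7a1 lie left of 0 and Lhx8 and the Irx genes right of it.

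Over all genes of the adipocyte class, 1.77% were higher by 2-fold or more and 1.03% at least 2-fold lower in BAT sham. Among those highest were genes of fast muscle. Myh4 held 253 UMIs against 2, a ratio of 102 (27.9 to 845), Tnnt3, a fast troponin, held 154 against 0, at least 41.3-fold higher on a floor of 3 counts, and Ttn, the giant sarcomere spring, held 448 against 29. Igkc, the antibody kappa light chain, held 213 and 21 UMIs. Outside muscle and antibody genes, Tec, a tyrosine kinase gene, was 3.99-fold higher. Among the lowest genes were Hist1h3f, a replication-dependent histone (49 and 435 UMIs, 11.03-fold lower, 8.198 to 15.1), the glutathione transferase gene Gstp1 (4.42-fold lower), Kcnip1, a potassium channel partner (3.68-fold lower), the metallothionein gene Mt1 (3.05-fold lower) and Chchd10, a mitochondrial cristae protein (3.03-fold lower).

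Progenitor-like nuclei differed in the genes of early progenitors. Of the 12 early progenitor genes, 11 were higher in BAT sham and 0 lower, with a median log2 ratio of 1.11 against 0.0038 over all genes of the class. At the same limits 5.23% of all genes of the class were higher and 8.01% were lower. Dpp4 (chr2:62330073-62412231), the surface peptidase of the interstitial progenitor, held 3504 UMIs (502 CPM) in BAT sham and 628 (199 CPM) in BeAT sham, 2.53-fold higher (2.32 to 2.76). Pi16, a peptidase inhibitor of the same cells, held 2715 and 579 UMIs, 2.12-fold higher (1.94 to 2.33). Sema3c, a guidance ligand, was 2.72-fold higher, Limch1 2.74-fold, Anxa3 2.21-fold and Cd55, a complement regulator, 2.01-fold. Fbn1, fibrillin of elastic microfibrils and a gene used to name the class, was 1.52-fold higher. Ly6a, the Sca-1 antigen found on most adipose progenitors, was the member that did not follow, at 376 and 397 CPM. Dpp4 and Pi16 are also among the markers that named the class.

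The early genes were seen in more nuclei as well as at a higher summed level. Dpp4 had at least 1 UMI in 41.0% of BAT sham and 18.6% of BeAT sham progenitor-like nuclei. Thinned to 1000 UMIs each, the shares were 27.0% (24.9% to 29.3%) and 11.04% (9.09% to 13.2%). Macrophage-like nuclei gave 1.05% and 0.354% thinned (2.73% and 0.775% unthinned). Median depths were 3744.5 and 2783 UMIs for progenitor-like and 3169 and 2501 for macrophage-like nuclei. Part of the difference came with 1 cluster. Cluster 10 held 42.4% of the class in BAT sham and 23.2% in BeAT sham, and without it 5 of 11 early genes were higher, with a median log2 ratio of 0.63. Within cluster 10 alone 2 of 12 were higher (0.41), and within cluster 11 alone 4 of 10 (0.60). The all-gene shares given above are for the whole class, not for these subsets. Dpp4 and Sema3c were among those higher both without cluster 10 and within cluster 11.

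Most genes of commitment to fat met neither limit. Of 13 committed preadipocyte genes with enough UMIs, 0 were higher and 2 were lower: the fatty acid binding protein gene Fabp4 by 2.28-fold and Car3, a carbonic anhydrase abundant in adipocytes, by 1.68-fold. Both are also strongly expressed by adipocytes, whose 11 marker genes summed to 4550 and 4376 CPM in these nuclei with none at 0. Neither gene is among those markers, and both were lower outside the stroma too. Fabp4 was 2.83-fold lower in T-or-NK-like nuclei, where the markers summed to 3068 and 2772 CPM. Car3 was 3.68-fold lower in B-like nuclei, where the sums were 2540 and 6195 CPM. The part of adipocyte RNA in the progenitor ratios was not tested. Pparg, the master factor of adipogenesis, was 1.21-fold lower. Secreted signals of the BMP, WNT and IGF pathways were higher in 6 of 19, with none lower and a median log2 ratio of 0.27. Dkk2, a WNT antagonist, held 767 and 124 UMIs, 2.80-fold higher (2.31 to 3.42), the ligand genes Wnt2 and Wnt11 were 2.18-fold and 2.08-fold higher, Bmp7 was 1.72-fold and Bmp4 1.54-fold higher, and the IGF carrier gene Igfbp3 was 1.65-fold higher. Wnt2 and Bmp7 are members of the early progenitor list too.

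Matrix genes split. Of 18 collagen genes, Col6a6 (2.37-fold) and Col14a1 (1.77-fold), which encodes a fibril-associated collagen, were higher. Col18a1, a collagen of basement membranes (2.05-fold), and Col12a1 (1.56-fold) were lower, and the median log2 ratio of the list was -0.31. The fibrillar collagen genes Col1a1 and Col3a1 were 1.49-fold and 1.18-fold lower. Of 14 matrix glycoprotein genes, fibronectin (Fn1, 1.56-fold) and Fbn1 were higher, and Bgn, Mgp, Thbs1 and Sparc were lower. Of 15 matrix remodelling genes, proteases and their inhibitors, 0 were called at 1.5-fold in either direction.

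Pitx1 and Irx5 were higher in progenitor-like nuclei too. Tbx5, a forelimb and heart factor, held 129 and 17 UMIs, 3.44-fold higher (2.06 to 6.08), Pitx1 held 22 and 2 UMIs, and Irx5 was 1.84-fold higher. Meox1, a somite homeobox gene, was 3.18-fold lower and the orphan receptor gene Nr2f1 2.10-fold lower, so that of 19 position genes 3 were higher and 2 were lower.

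Over all genes of the progenitor class, 2.13% were higher by 2-fold or more and 1.57% at least 2-fold lower. Rspo3, which amplifies WNT signals, held 233 and 25 UMIs, 4.22-fold higher (2.79 to 6.66). Pld5 was 3.96-fold, Tmem132c 3.81-fold and Car8 3.68-fold higher. Neutrophil- and monocyte-attracting chemokine genes were among the lowest: Cxcl1 held 21 and 105 UMIs, 11.04-fold lower (6.86 to 18.6), Ccl7 74 and 135, 4.03-fold lower, and Ccl2 52 and 94, 3.99-fold lower. Mlana, a melanosome gene, was 5.03-fold lower and Mdk, the growth factor midkine, 3.85-fold lower. Myh4 was at 172 UMIs against 0 in these nuclei, at least 26.0-fold higher.

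In macrophage-like nuclei the genes of lipid-laden cells were lower by far and those of resident cells higher. Of 16 genes of lipid-associated macrophages, the lipid-handling cells of obese fat, 14 were lower in BAT sham and 0 higher, with a median log2 ratio of -1.48 against -0.04 over all genes of the class. At the same limits 11.8% of all genes of the class were lower and 6.44% were higher. Gpnmb (chr6:49036546-49070929), a lysosomal glycoprotein induced by lipid load, held 30 UMIs (7.52 CPM) in BAT sham and 800 (415 CPM) in BeAT sham, 55.2-fold lower (38.4 to 82.3). Atp6v0d2, a subunit of the lysosomal proton pump, held 45 and 599 UMIs, 27.5-fold lower (20.3 to 38.2). Itgax, which encodes CD11c, held 2 and 44 UMIs, 45.5-fold lower (11.9 to 388). Mmp12, a macrophage elastase that is not on the list, held 0 and 381, at least 263-fold lower. Trem2, the lipid receptor that marks these cells, was lower by less, with 119 and 157 UMIs, 2.73-fold (2.14 to 3.49). Spp1 (osteopontin) was 8.79-fold lower, Cd9 4.14-fold, the galectin gene Lgals3 3.19-fold and the lysosomal protease gene Ctsd 2.03-fold. Fabp4 and Fabp5, also on the list, are shared with adipocytes and capillaries. The 11 adipocyte markers summed to 2512 and 3313 CPM in macrophage-like nuclei, and their part in the Fabp4 ratio was not tested.

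This difference rested on 1 cluster to a large part. Cluster 8 held 1.67% of the class in BAT sham and 23.6% in BeAT sham. Without it 9 of 14 list members were lower, with a median log2 ratio of -0.77, and within cluster 7, which held 79.6% and 50.4% of the class, 5 of 13 were (-0.70). Whole-class shares of all genes do not extend to these smaller sets of nuclei. Gpnmb was then at 19 and 19 UMIs without cluster 8, 2.79-fold lower, and Trem2 was among those lower in both settings. Cd9 turned the other way without cluster 8, with a log2 ratio of 0.57. Gpnmb had a UMI in 1.76% of BAT sham and 14.1% of BeAT sham macrophage-like nuclei, and in 0.669% (0.269% to 1.37%) and 11.2% (8.68% to 14.0%) when thinned to 1000 UMIs. Endothelial-like nuclei gave 2.36% and 1.76% unthinned and 0.770% and 0.743% thinned, at median depths of 2191 and 1937.5 UMIs. The share in BAT sham was therefore at background.

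Resident macrophage genes stood the other way. Of 12, 5 were higher in BAT sham and 0 lower, with a median log2 ratio of 0.56. Timd4 (chr11:46810800-46844332), the phosphatidylserine receptor of long-lived resident macrophages, held 238 and 43 UMIs, 2.67-fold higher (1.93 to 3.79). Cd163, the haemoglobin scavenger receptor and a gene used to name the class, held 2460 and 451, 2.64-fold higher (2.38 to 2.92). It was seen in 33.9% (31.0% to 36.9%) and 15.4% (12.5% to 18.6%) of thinned nuclei, against 0.770% and 0.558% of endothelial-like nuclei (unthinned 48.3% and 21.2%, against 1.39% and 0.641%). F13a1, also a naming gene, was 1.95-fold higher, the hyaluronan receptor gene Lyve1 1.59-fold and the transcription factor gene Maf 1.56-fold. Without cluster 8 the count was 2 of 12, Timd4 and Cd163, and within cluster 7 it was 1, Cd163. Of 10 monocyte and inflammatory genes 3 were lower, the chemokine genes Cxcl2 (24 and 57 UMIs), Ccl2 and Ccl4. Without cluster 8 Cxcl2 turned to a log2 ratio of 0.78. The monocyte receptor gene Ccr2 was level at 90.3 and 96.5 CPM. Of 16 interferon response genes, Ifit1, Oas2 (682 and 156 UMIs, 2.11-fold) and Ddx58 (1.67-fold) were higher.

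**Figure D3:**
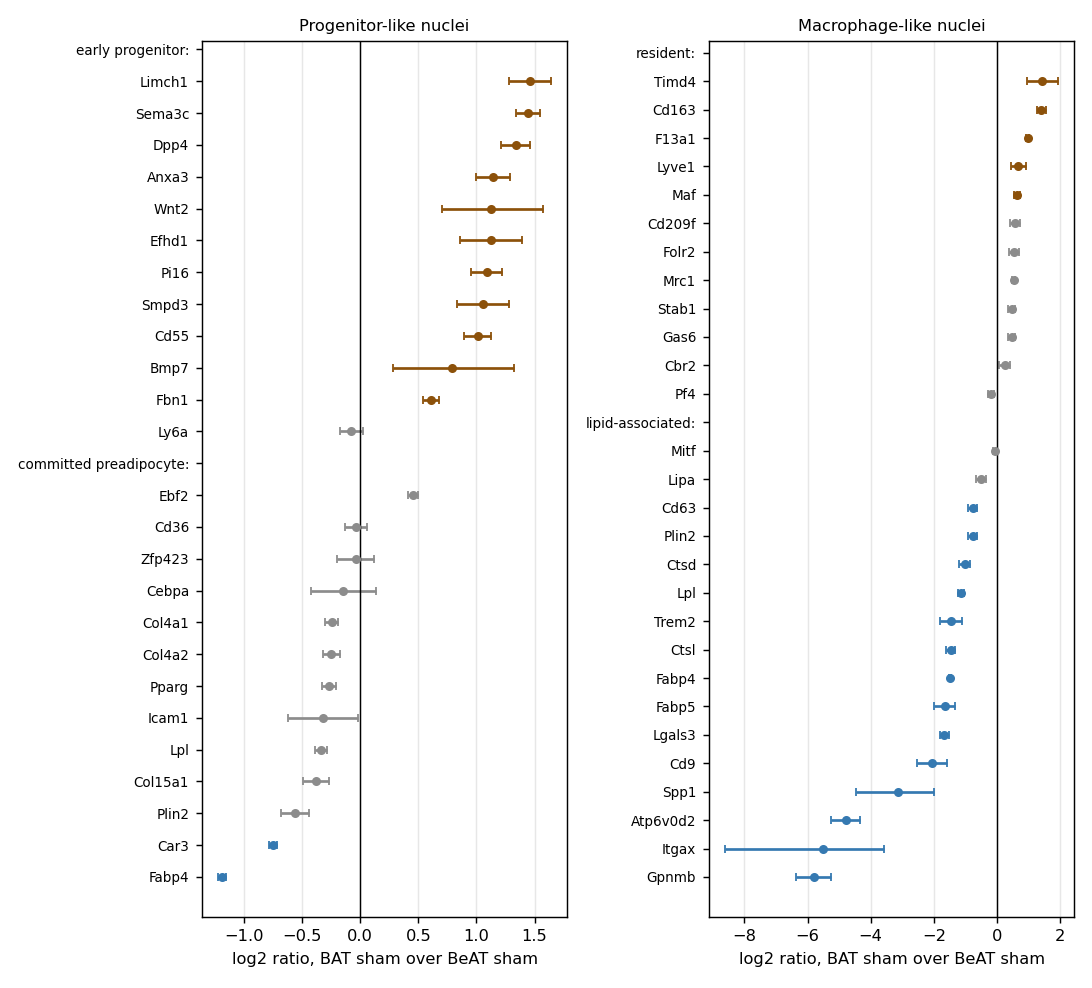
Ratio of CPM, BAT sham over BeAT sham (x axis, log2), for early progenitor and commitment genes in progenitor-like nuclei and for resident and lipid-associated genes in macrophage-like nuclei, with counting intervals (95%). Brown points mark genes higher in BAT sham by 1.5-fold or more, blue points genes lower by as much, and grey points neither. Early progenitor and resident genes lie to the right and lipid-associated genes to the left, with Gpnmb, Itgax and Atp6v0d2 farthest.

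Over all genes of the macrophage class, 2.17% were higher by 2-fold or more and 3.66% at least 2-fold lower. The lowest genes outside the list included Rgs1, a brake on G-protein signals (22 and 270 UMIs, 25.4-fold lower, 16.4 to 41.2), the interleukin-7 receptor gene Il7r (12 and 143 UMIs, 24.7-fold lower) and the adhesion gene Cadm1 (12.4-fold lower). The highest included Naaladl2 (3.97-fold), the nuclear factor gene Aff3 (1614 and 205 UMIs, 3.81-fold), the potassium channel gene Kcnt2 (3.78-fold), Cd226 (3.38-fold) and the erythropoietin receptor gene Epor (3.14-fold).

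**Figure D4:**
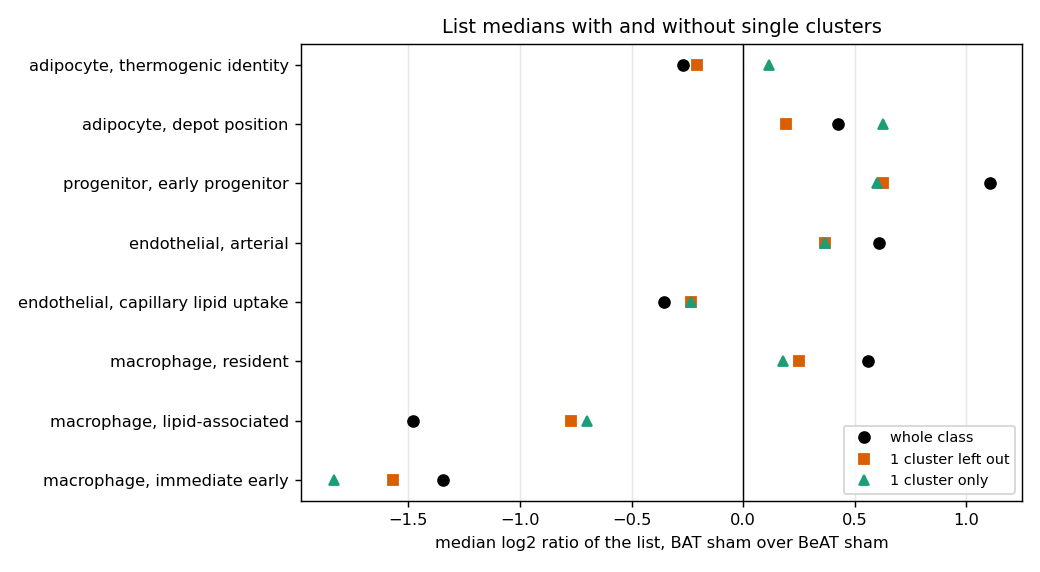
Median log2 ratio of list members, BAT sham over BeAT sham (x axis), over the whole class (circles), with 1 cluster left out (squares; adipocyte 15, progenitor 10, endothelial 18, macrophage 8) and within 1 cluster (triangles; 15, 11, 2 and 7 in that order). The lipid-associated median moved from -1.48 to -0.77 without cluster 8 and the early progenitor median from 1.11 to 0.63 without cluster 10, while the thermogenic median lay above 0 within cluster 15.

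In endothelial-like nuclei part of the arterial genes were higher in BAT sham and a few genes of capillary lipid uptake were lower. Of 11 arterial genes 6 were higher and 0 lower, with a median log2 ratio of 0.61. The median over all genes of this class was 0.12, and it was 0.13 in lymphatic endothelial, 0.11 in B and 0.18 in Schwann nuclei, so ratios there are read against that shift. At the 1.5-fold limit 12.0% of all endothelial genes were higher and 9.81% were lower. Bmx, a tyrosine kinase of arterial endothelium, held 273 UMIs (145 CPM) in BAT sham and 49 (30.2 CPM) in BeAT sham, 4.81-fold higher (3.54 to 6.66). The Notch ligand genes Jag1 and Dll4 were 2.31-fold and 1.52-fold higher, the ephrin gene Efnb2 1.80-fold, Nebl 2.63-fold, and Mecom, a transcription factor gene used to name the class, 2.10-fold (3130 and 1284 UMIs). Sox17, an early arterial factor, was level at 205 and 188 CPM. Cluster 18 carried much of this. It held 16.8% of the class in BAT sham and 9.94% in BeAT sham. Without it 3 of 9 arterial genes were higher (Mecom, Dll4 and Efnb2, median log2 ratio 0.36), while Bmx was at 2 and 4 UMIs and Nebl turned to a log2 ratio of -0.99. The shares of all endothelial genes above include cluster 18.

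Of 7 venous genes with enough UMIs 2 were higher, Vwf, the clotting factor carrier, 2.08-fold, and the adhesion gene Vcam1 2.47-fold, which turned to a log2 ratio of -1.13 without cluster 18. Of 13 capillary lipid uptake genes 3 were lower, with a median log2 ratio of -0.36. Fabp5 held 1024 and 2101 UMIs, 2.38-fold lower (2.21 to 2.56), Fabp4 was 2.01-fold lower, and Gpihbp1, the capillary anchor of lipoprotein lipase, 1.51-fold lower. Adipocyte RNA moved the same way in these nuclei: the 11 adipocyte markers summed to 3250 and 4238 CPM, and Cidea was 3.35-fold lower. Fabp4 was also 2.83-fold lower in T-or-NK-like nuclei and Fabp5 6.63-fold lower in Schwann-like nuclei. The part of RNA from other cells in these ratios was not tested. With the trend on gene span taken off, 1 of the 13 was lower and Gpihbp1 was level. Cd36, the fatty acid translocase, was 1.30-fold higher and Lpl 1.15-fold lower. Of 13 angiogenesis genes, the angiopoietin receptor gene Tek (1.66-fold) and Cxcr4 (23 and 7 UMIs) were higher. Over all endothelial genes 2.49% were higher by 2-fold or more and 3.45% at least 2-fold lower, 41.9% of the calls being higher. With median-of-ratios size factors that split was 25.5%. The highest included Nos1ap (182 and 29 UMIs, 5.42-fold), Plcg2 (4.52-fold), the phosphatase gene Ptprj (4.30-fold), Myrip (3.99-fold) and Hdac9 (3.34-fold). Among the lowest was Hba-a1, an alpha-globin gene (1250 and 5080 UMIs, 4.71-fold lower).

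Lymphatic-endothelial-like nuclei numbered 115 and 102. Their cluster was led by lymphatic genes (Mmrn1, Ccl21a, Prox1) and also by Selp, Vwf and Ackr1, which veins express. With all 4 libraries clustered together, the lymphatic cluster held 37 nuclei of BAT sham and 14 of BeAT sham, and Selp and Vwf were among the leading genes of an endothelial cluster instead. The ratios below are therefore those of a mixed class whose lymphatic part differs between the libraries. Reln held 203 and 7 UMIs, 23.4-fold higher in BAT sham (11.1 to 58.8), and Ccl21a, the chemokine that guides dendritic cells into lymph vessels, held 138 and 9, 12.3-fold higher (6.32 to 27.6). Mmrn1 was 3.52-fold higher and the protease-like gene Adamtsl1 7.002-fold higher. Reln, Ccl21a and Mmrn1 are markers of the class. Nrg4, a growth factor abundant in adipocytes, was 4.07-fold lower. Of all genes of the class, 6.93% were higher by 2-fold or more and 8.49% lower. Here 44.9% of calls were higher, and 32.5% with median-of-ratios size factors.

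Smooth-muscle-like nuclei take in pericyte-like nuclei as well. At resolution 2.0, a cluster of 202 and 232 nuclei held 7 of 7 pericyte markers and a cluster of 96 and 133 nuclei held 6 of 6 smooth muscle markers. No gene list was set for this class, and the genes named are among its highest and lowest. Myocd, the master co-activator of smooth muscle, held 130 and 35 UMIs, 4.47-fold higher (3.06 to 6.69). The integrin gene Itga8 was 4.51-fold higher, Col19a1 8.24-fold, Xkr4 8.05-fold and Kcnma1, the large-conductance potassium channel that relaxes vessels, 3.87-fold. The monocyte chemokine gene Ccl2 held 3 and 107 UMIs, 29.6-fold lower (9.88 to 146), and Cxcl10, an interferon-induced chemokine, held 6 and 132, 18.3-fold lower (8.18 to 50.7). Hbb-bs, a beta-globin gene, was 7.18-fold lower. Of all genes, 3.11% were higher by 2-fold or more and 2.24% lower. The calls were 58.1% higher, and 30.8% with median-of-ratios size factors.

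Lymphocytes differed by subset genes. In T-or-NK-like nuclei 4 of 18 subset genes were higher in BAT sham and 5 were lower, where 6.16% of all genes were higher and 8.47% lower at the same limits. The killing genes Gzma (33 and 148 UMIs, 4.89-fold lower, 3.34 to 7.37) and Gzmb (3.11-fold lower), the chemokine gene Ccl5 (2.47-fold), the CD8 chain gene Cd8b1 (2.52-fold) and the checkpoint gene Ctla4 (3.71-fold) were lower. Il2ra, the interleukin-2 receptor alpha chain (34 and 9 UMIs), Il23r (2.92-fold), Il1rl1, the interleukin-33 receptor (2.65-fold), and Gata3 (1.58-fold) were higher. Cd4 was level at 37 and 34 UMIs, and Ncr1, a natural killer receptor gene, was 1.26-fold higher. Over all genes 2.04% were higher by 2-fold or more and 3.51% lower. In B-like nuclei, 68 and 52 in number, antibody genes were higher: Igha, the IgA heavy chain, held 157 UMIs and 0, at least 32.6-fold higher, Igkc was 5.05-fold higher and Ighm, a naming gene, 2.49-fold higher. Of all B-like genes 5.85% were higher by 2-fold or more and 4.86% lower. The 5 plasma cell marker genes, which include Igha, summed to 1524 CPM in B-like nuclei of BAT sham with none at 0, and to 10.6 CPM in BeAT sham with 4 at 0. With all 4 libraries clustered together, a separate plasma cluster held 8 nuclei of BAT sham and 0 of BeAT sham. Over the other 9 classes they summed to between 0 and 20.3 CPM.

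Dendritic-like nuclei numbered 256 and 197, and their cluster was led by Flt3 and Clec9a but also by Lyz1, Cd226 and Tnip3. At resolution 2.0 a cluster of 61 and 65 nuclei was named dendritic. A cluster of 147 and 79 nuclei led by Lyz1, Cd226 and Tnip3 was then named macrophage. The ratios below are therefore those of a class that may be mixed. In dendritic-like nuclei Hist1h2ap, a replication-dependent histone gene, held 14 and 88 UMIs, 9.62-fold lower (5.44 to 18.3), and Fabp5 was 4.57-fold lower. Capillary and red cell genes were among the lowest beside it, Aqp1 by 4.53-fold, Gpihbp1 by 4.06-fold, Hba-a2 by 3.53-fold and Ly6c1 by 3.15-fold, and the part of RNA from those cells was not tested. Thsd4, a microfibril protein gene, was 6.62-fold higher and Fbn1 4.21-fold higher. Of all genes of the class, 2.20% were higher by 2-fold or more and 3.17% lower.

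Schwann-like nuclei, which wrap the nerves of fat, numbered 61 and 69. Of 9 myelinating genes 6 were higher in BAT sham and 1 was lower, with a median log2 ratio of 0.87 against 0.18 over all genes of the class, where 17.9% of genes were higher and 14.3% lower. Pmp22, a protein of compact peripheral myelin, held 650 and 233 UMIs, 2.08-fold higher (1.79 to 2.42). Prx (periaxin) was 2.69-fold, Drp2 2.46-fold, Ncmap 1.92-fold and Mbp, a naming gene, 1.74-fold higher. Of 8 non-myelinating genes, Sorcs1 was 4.25-fold higher, and Gfra3, a neurotrophic factor receptor gene (11 and 60 UMIs, 7.32-fold lower), and Ncam1 (1.68-fold lower) were lower. Over all genes of the class, 17.0% were called higher at 2-fold and 15.5% lower.

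Some gene lists differed in the same direction in most cell types. RNAs made by the mitochondrial genome, which encode the core subunits of the respiratory chain, had lower medians in BAT sham in all 7 of the classes whose lists were plotted side by side, from -0.76 in smooth muscle to -2.52 in Schwann nuclei on the log2 scale. In adipocyte-like nuclei 13 of 13 were lower, among them mt-Co1 (11924 and 21292 UMIs, 2.22-fold lower, 2.17 to 2.27), mt-Cytb (2.68-fold) and mt-Nd4l (3.58-fold). Within single adipocyte clusters the count ran from 1 (cluster 25) to 12 (cluster 14), and without cluster 5 it was 9. Over the whole libraries the median share of mitochondrially encoded UMIs was also lower in BAT sham, at 0.149% against 0.450%. These RNAs are made outside the nucleus, and the part of RNA carried over into the nuclear libraries in these ratios was not tested. Respiratory chain genes of the nucleus were lower too, 8 of 18 in adipocyte-like nuclei (median log2 ratio -0.48) and 9 of 18 in progenitor-like nuclei (-0.58). Cycs, which encodes cytochrome c, was 2.21-fold lower in adipocyte-like nuclei, and the complex IV gene Cox4i1 2.01-fold lower. Core clock medians lay on both sides of 0 in these 7 classes, from -0.25 to 0.36, and were lower in the smaller dendritic-like (-0.60) and B-like (-1.22) classes. In B-like nuclei the median of the mitochondrially encoded genes was 0.21.

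Immediate early genes, which cells switch on within minutes of a stimulus, were lower as well. In adipocyte-like nuclei 12 of 20 were lower (median log2 ratio -0.85), in progenitor-like nuclei 11 of 21 (-0.82), and in macrophage-like nuclei 17 of 20 (-1.35). Fos, a subunit of the AP-1 factor, held 741 and 2166 UMIs in adipocyte-like nuclei, 3.63-fold lower (3.34 to 3.95), 961 and 1198 in progenitor-like nuclei, 2.75-fold lower, and 442 and 807 in macrophage-like nuclei, 3.78-fold lower. It was lower in each of the 5 adipocyte-like clusters, from 3.51-fold to 6.71-fold. Ier2 was 3.58-fold, Jun 2.47-fold and Junb 2.43-fold lower in adipocyte-like nuclei. In macrophage-like nuclei Egr2 (8 and 34 UMIs) was 8.79-fold and Atf3 4.59-fold lower. Endothelial-like nuclei had 4 of 17 lower and T-or-NK-like nuclei 2 of 11. The heat shock genes were lower in 4 of 10 in adipocyte-like nuclei and 6 of 12 in progenitor-like nuclei. These included the constitutive chaperone gene Hspa8 in both classes, while the inducible genes Hspa1a, Hspa1b and Hsph1 were called in neither. At the same limits 4.97% of all adipocyte-like, 8.01% of progenitor-like and 11.8% of macrophage-like genes were lower. The shares were 9.81% in endothelial-like and 8.47% in T-or-NK-like nuclei.

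**Figure D5:**
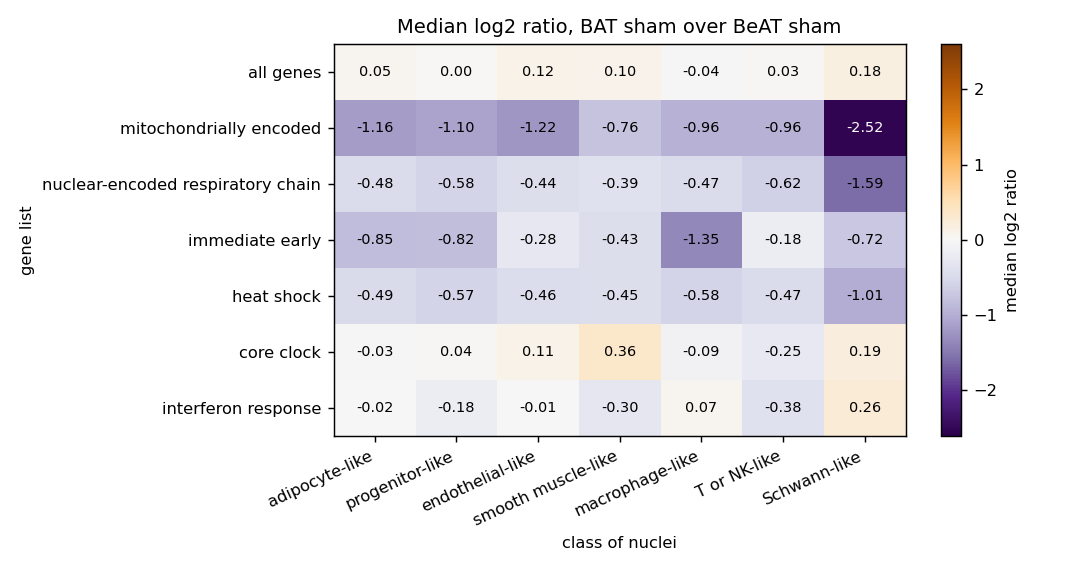
Median log2 ratio, BAT sham over BeAT sham, of all genes and of the members of 6 gene lists (rows) in 7 classes (columns), printed in each cell and coloured from purple (lower in BAT sham) to orange (higher). Medians of the mitochondrially encoded genes run from -0.76 to -2.52 and those of the immediate early genes from -0.18 to -1.35, while core clock medians lie on both sides of 0.

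The promoters of 4 of these genes are shown because their RNAs were lower together in adipocyte-like nuclei and CREB is a textbook regulator of Fos. Each line gives the 250 bases before the start of the gene on its own strand (RefSeq, GRCm38.p6), with the CREB half-site TGACG, or CGTCA for a match on the other strand, in capitals. Fos lies at chr12:85473640-85473889 on the plus strand, Fosb at chr7:19310046-19310295, Jun at chr4:95052223-95052472 and Junb at chr8:84978749-84978998, all 3 on the minus strand.
Fos: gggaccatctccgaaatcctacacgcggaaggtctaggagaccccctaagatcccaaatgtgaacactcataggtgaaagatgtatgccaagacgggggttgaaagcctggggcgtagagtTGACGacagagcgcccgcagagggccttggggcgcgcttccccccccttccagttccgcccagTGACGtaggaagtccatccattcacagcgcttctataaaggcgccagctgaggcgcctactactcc
Fosb: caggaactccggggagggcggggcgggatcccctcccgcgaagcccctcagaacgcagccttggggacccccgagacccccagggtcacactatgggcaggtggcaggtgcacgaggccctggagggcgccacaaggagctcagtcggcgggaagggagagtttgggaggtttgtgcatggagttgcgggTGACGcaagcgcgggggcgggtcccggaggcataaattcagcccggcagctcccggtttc
Jun: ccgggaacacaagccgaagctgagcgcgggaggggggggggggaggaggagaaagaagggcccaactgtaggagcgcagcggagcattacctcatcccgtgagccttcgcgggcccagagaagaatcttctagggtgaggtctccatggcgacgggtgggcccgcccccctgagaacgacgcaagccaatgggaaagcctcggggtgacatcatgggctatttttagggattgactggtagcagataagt
Junb: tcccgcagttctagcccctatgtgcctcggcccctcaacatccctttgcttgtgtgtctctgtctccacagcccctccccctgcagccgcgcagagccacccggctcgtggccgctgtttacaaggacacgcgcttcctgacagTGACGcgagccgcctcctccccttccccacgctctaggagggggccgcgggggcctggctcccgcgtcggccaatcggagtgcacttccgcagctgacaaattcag
The Fos window holds 2 half-sites, the Fosb and Junb windows 1 each and the Jun window 0. None of the 4 holds the whole palindrome TGACGTCA or the AP-1 site TGACTCA. Among 32851 promoter windows of the same length, 17.8% hold the half-site on either strand, 1.55% the palindrome and 4.46% the AP-1 site. These are letter matches only.

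Gene length moved with the ratio in most classes. Between log2 ratio and gene span, Spearman's rho across genes ran from 0.32 to 0.58 in 9 classes and was -0.22 in B-like nuclei. Genes are not independent replicates, so this is a description. The shortest 5% of genes had medians from -0.31 (adipocyte-like) to -1.73 (Schwann-like) in those 9 classes and the longest 5% from 0.14 to 0.74. Fos spans 3.38 kb and Dpp4 82.2 kb. With the span trend taken off, 11 of 13 mitochondrially encoded and 11 of 20 immediate early genes stayed lower in adipocyte-like nuclei, and 13 of 20 immediate early genes in macrophage-like nuclei. Higher calls then went from 57.5% to 72.5% of the 2-fold calls in progenitor-like nuclei and from 37.3% to 49.5% in macrophage-like nuclei. The part that depth, which also differed (medians of 4032.5 and 3093 UMIs), had in this trend was not tested.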

How the data were processed

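The authors deposited UMI counts per gene and barcode for each library (32285 genes), the only values used. Per the labels, libraries followed a SeekGene protocol. Per the submitters' processing notes, the build was mm10 and Seurat 4.4.0 and 4 were used, with no role stated. The aligner and counting program were not given in the sources used here.

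Members had at least 300 genes and under 10% mitochondrially encoded UMIs, which removed 29 and 34 barcodes. Scrublet's automatic threshold marked 1 and 0 nuclei, so the highest-scoring 6% of each library were removed as doublets. Kept nuclei of both libraries were scaled to 10000, log-transformed and clustered together without integration (scanpy 1.11.5, 2000 variable genes, 30 principal components, 15 neighbours, Leiden resolution 1.0). A cluster took a class name from at least 3 markers at least 2-fold over the median of clusters in at least 5% of its nuclei, with a mean marker fold of at least 4. It stayed unnamed where another class reached 60% of its score or its leading genes went against the name, as St18 with Slc24a2 did. The 60% rule was not applied between pericyte and smooth muscle, endothelial and lymphatic endothelial, macrophage and dendritic, or B and plasma. It was also not applied to erythroid markers where none of them led. Named classes can therefore be mixed. These limits were set with the clusters in view.

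Counts were summed by class and library. Intervals are exact (Clopper-Pearson for shares, conditional binomial for ratios, scipy 1.17.1), and ratios to 0 use a floor of 3 counts. Classes needed 50 nuclei in each library. Named genes were, in each class, among the 10 highest and 10 lowest with at least 100 UMIs that met the 2-fold rule (predicted gene models counted, not named), list members, class markers and genes of the label check. Of 622 list symbols, 621 were matched. Coordinates and spans came from GENCODE release M21 (GRCm38, the build called mm10). Members, markers and lists were chosen with earlier results of these data known. Ratio scripts were checked on simulated counts. Libraries of the surgery group entered only 1 alternative clustering. Some list members are counted but not reported here by name.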

Additional observations from a re-analysis of the deposited data

How the results depend on the processing

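No paired analysis was possible because each side has 1 library. Of 183 alternative values of counts, lists and shares, 119 stayed within 1.5 times or within the counting interval, and of 2766 for 430 single genes 2287 did. The numbers of genes at least 2-fold apart (391, 426, 501, 434, 399, 561, 332, 215, 108 and 428 in adipocyte, progenitor, endothelial, lymphatic endothelial, smooth muscle, macrophage, dendritic, T or NK, B and Schwann nuclei) depend on the UMI minimum. In that order they were 651, 655, 828, 865, 720, 909, 685, 558, 362 and 1000 at 20 UMIs, 838, 808, 1055, 1173, 929, 1158, 959, 854, 676 and 1431 with no minimum, and 210, 229, 331, 116, 189, 276, 118, 76, 17 and 61 with nuclei thinned to 1000 UMIs. With the span trend taken off, endothelial, lymphatic endothelial, smooth muscle and Schwann counts were 300, 192, 218 and 214, 1 capillary gene was lower and 8 resident macrophage genes were higher, Gpihbp1 in endothelial nuclei turned to a log2 ratio of 0.0084, and the higher share of calls in B nuclei went from 54.6% to 42.1%. Thinned, 3 thermogenic genes were lower, and 1 position and 3 BMP, WNT and IGF genes were higher. Settings added after seeing the data left out or kept 1 cluster: adipocyte cluster 15 alone gave 0 lower thermogenic, 1 higher position and 4 lower mitochondrially encoded genes, and 3 position genes were higher without it. Early progenitor counts were 5 without cluster 10 and 4 in cluster 11, where 3 BMP, WNT and IGF genes were higher. Arterial counts were 3 without cluster 18 and 3 in cluster 2, and without cluster 18 Bmx, Nebl and Vcam1 in endothelial nuclei turned to log2 ratios of -1.08, -0.99 and -1.13. Lipid-associated counts were 9 without cluster 8 and 5 in cluster 7, resident counts 2 and 1, and Cd9 and Cxcl2 in macrophage nuclei turned to 0.57 and 0.78 without cluster 8. With scored doublets kept, 3 resident genes were higher, the ratio of adipocyte shares was 0.746 and of unnamed shares 0.636, and Hist1h2ab in dendritic nuclei turned to 0.41. The adipocyte ratio was 0.787 over named classes without skeletal muscle. The endothelial ratio of shares was 1.83 at resolution 0.5 and 1.03 at 2.0, the dendritic ratio turned to 0.936 at 2.0 and 0.951 with all 4 libraries clustered together, and the unnamed ratio was 0.454, 0.448 and 0.467 under these 3, and 0.306 for nuclei with at least 1000 UMIs and 500 genes. Smooth muscle formed no class of its own with all 4 libraries. The cause of these moves was not tested.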

Other observations

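The 60 epithelial-like nuclei (0.613%) were all in the library labelled BAT sham. In BeAT sham 0 of 9760 nuclei fell in the class, which allows a share of up to 0.0307%. All 7 epithelial markers met the naming limits in this cluster. These nuclei held 234 UMIs of Epcam, the epithelial adhesion gene, 115 of the keratin gene Krt18 and 73 of Krt8. Hormone receptor RNAs were prominent, with 1407 UMIs of Prlr, the prolactin receptor, 353 of Esr1, the oestrogen receptor, and 71 of Pgr, the progesterone receptor. The basal keratin genes Krt5 and Krt14 held 5 UMIs and 1 UMI. Of milk protein genes, Csn3 held 110 UMIs while Csn2, Wap and Lalba were at 0, and Gpx5, an epididymal gene, was also at 0.

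The unnamed clusters held 3 sets of leading genes. Cluster 1 (589 nuclei in BAT sham, 1485 in BeAT sham) was shallow, with a median of 968.5 UMIs, and carried globin RNA beside capillary genes such as Gpihbp1 and Rbp7. Its Hbb-bs, a beta-globin gene, was at 2187 CPM in BAT sham and 6031 CPM in BeAT sham. Cluster 17 (20 and 173 nuclei) was led by genes of neurons. Nrg3, a neuregulin, held 1381 and 919 UMIs (4602 and 2264 CPM) and Snap25, a synaptic vesicle fusion gene, 478 and 235. Its neuron genes differed between the libraries. Slc6a5 held 109 UMIs and Glra1 133 in BAT sham, and both were at 0 in BeAT sham. Camk2a was at 83.3 and 483 CPM and Nrgn at 23.3 and 254 CPM. Syt1 (1970 and 2262 CPM) and Gria2 (630 and 569 CPM) were closer. Cluster 26 (26 and 0 nuclei) was led by St18 and Slc24a2 and held genes of myelin made by oligodendrocytes, with 83 UMIs of Mog and 103 of Mag.

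Library depth limits the small classes most. A count of 3 corresponded to 0.119 CPM in adipocyte-like nuclei of BAT sham and to 31.8 CPM in B-like nuclei of BeAT sham, so differences in B-like, Schwann-like and lymphatic-endothelial-like nuclei were detectable only for abundant genes.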
